A study of Mus musculus with 4 samples.

Results

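Of 52950 stretches of open chromatin that all 4 libraries shared, 2632 were stronger in mouse embryonic stem cells carrying SOX2 than in cells carrying SOX17FNV. They were selected on the measured values themselves. Overlapping peaks of the 4 deposited lists were merged, regions called in every library were kept, and each region received in each library the percentile of its highest -log10 p among the kept regions. A region was chosen when its SOX2 percentile exceeded its SOX17FNV percentile by at least 20 points in replicate 1 and again in replicate 2. The kept regions are part of 154888 merged regions on chromosomes 1 to 19. Chromosome 14 and the stretch from 120 to 150 Mb of chromosome 6 were left out.

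The cells were of the line 2TS22C, an embryonic stem cell line grown in 2i serum/LIF medium. In both groups the endogenous Sox2 gene was silenced and the cells received DOX, and a lentivirus carried the gene of the SOX factor. One group received SOX2 and the other SOX17FNV, an engineered SOX17, with 2 libraries in each group and 900000 cells as the start of each library. Silencing, DOX and lentivirus are thus common to the groups, and unmodified cells were not analysed here. The titles call the 2 libraries of a group biological replicates, and the labels do not say whether they came from separate cultures or clones. ATAC-seq was the assay: a transposase cuts open DNA and adds sequencing adapters there.

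SOX proteins bind a short A/T-rich element through the HMG box, a DNA-binding domain that bends the DNA. In embryonic stem cells SOX2 binds many enhancers together with OCT4, a POU factor, at elements where a SOX and an OCT site lie side by side, and it is required for pluripotency. SOX17 belongs to another branch of the family and acts in endoderm and in blood vessels. A region of open chromatin marks a promoter, an enhancer or another site where proteins displace nucleosomes. Here a region is summarised by the pileup at its summit, the number of fragments stacked over its highest point. In a bulk library, fewer cells with an open region and less opening per cell cannot be told apart.

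The deposited lists held 92851 to 123214 peaks, and the median summit pileup of the kept regions was 33 and 24 with SOX17FNV and 35 and 28 with SOX2. No read totals were available, so depth was read from these pileups, and pileups are also given relative to the library's median over the kept regions. The 8 general pluripotency markers examined, among them Pou5f1, Nanog and Sall4, had a called region at a gene end in each library. Of 10 fibroblast markers, which would mark feeder cells, 6 and 5 had one with SOX17FNV, and 6 and 5 with SOX2. Their part in the results was not tested.

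Where a chosen region covered a promoter, the promoter sequence was available from RefSeq (table for GRCm38.p6, whose coordinates are those of mm10). Promoter windows of 300 bases overlapped 242 of the 2632 regions. The 4 protein-coding promoters with the largest difference are shown so that the letters beneath the strongest promoter differences can be read, together with the promoters of Sycp3 and Sp5, which belong to the gene lists described further on. Each line holds the 250 bases before the gene's start, 5′ to 3′ on the gene's strand. Capitals mark matches, on either strand, to any of 13 motifs, each named with its letters and the share of all 29526 promoters of the table on the chromosomes used that hold it within 300 bases. The SOX motif is ACAATGG (3.60%), and the OCT motif of POU factors is ATGCAAAT (1.74%). The KLF motif is GGGNGTGG (17.8%), the SP motif is GGGCGG (36.4%), and the ETS motif is CCGGAAG (9.09%). The TEAD motif is GGAATG (14.5%), the TCF motif is CTTTGAT (3.78%), and the GATA factor motif is AGATAA (11.2%). The EBOX motif is CACGTG (7.24%), the STAT motif is TTCCNGGAA (1.199%), and the AP-1 motif is TGANTCA (7.85%). The ESRRB motif is TCAAGGTCA (0.420%), and the NRF1 motif is GCGCATGC (2.71%).
Notch4 promoter: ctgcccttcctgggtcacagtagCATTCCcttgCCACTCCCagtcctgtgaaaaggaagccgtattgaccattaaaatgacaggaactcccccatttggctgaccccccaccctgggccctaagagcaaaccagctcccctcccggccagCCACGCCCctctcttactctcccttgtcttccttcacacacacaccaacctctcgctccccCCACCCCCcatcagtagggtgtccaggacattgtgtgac
Tfpi promoter: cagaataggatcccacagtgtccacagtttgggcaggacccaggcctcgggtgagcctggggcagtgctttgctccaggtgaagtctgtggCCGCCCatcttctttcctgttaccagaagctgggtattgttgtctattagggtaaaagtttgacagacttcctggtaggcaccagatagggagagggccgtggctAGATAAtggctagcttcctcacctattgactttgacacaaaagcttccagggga
Myo16 promoter: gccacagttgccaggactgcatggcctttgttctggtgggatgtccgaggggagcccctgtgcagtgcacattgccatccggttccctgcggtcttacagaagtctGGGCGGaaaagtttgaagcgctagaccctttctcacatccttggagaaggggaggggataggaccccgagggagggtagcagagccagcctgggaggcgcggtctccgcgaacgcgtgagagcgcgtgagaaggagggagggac
Dnajc6 promoter: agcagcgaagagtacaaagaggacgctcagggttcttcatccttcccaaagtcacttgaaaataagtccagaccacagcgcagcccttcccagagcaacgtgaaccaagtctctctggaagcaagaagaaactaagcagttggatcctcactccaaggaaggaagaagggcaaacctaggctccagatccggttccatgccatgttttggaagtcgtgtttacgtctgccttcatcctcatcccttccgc
Sycp3 promoter: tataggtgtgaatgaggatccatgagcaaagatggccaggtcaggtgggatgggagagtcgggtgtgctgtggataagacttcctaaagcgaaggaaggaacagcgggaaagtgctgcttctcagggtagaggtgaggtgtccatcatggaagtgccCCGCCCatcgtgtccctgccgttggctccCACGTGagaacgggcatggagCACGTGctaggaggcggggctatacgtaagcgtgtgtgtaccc
Sp5 promoter: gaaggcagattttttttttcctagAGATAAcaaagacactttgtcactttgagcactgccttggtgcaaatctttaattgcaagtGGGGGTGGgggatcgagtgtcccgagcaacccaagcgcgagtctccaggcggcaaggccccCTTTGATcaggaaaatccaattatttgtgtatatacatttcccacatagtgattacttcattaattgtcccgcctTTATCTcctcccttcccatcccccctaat
These windows lie at chr17:34564045-34564294, chr2:84474175-84474424 (minus strand), chr8:10153661-10153910, chr4:101507726-101507975, chr10:88459337-88459586 and chr2:70474673-70474922 in this order, the others on the plus strand. The Notch4 promoter held KLF and TEAD matches, that of Tfpi an SP and a GATA match, that of Myo16 an SP match, and that of Sycp3 SP and EBOX matches. The Sp5 promoter held GATA, KLF and TCF matches, and the Dnajc6 window no match. A match is a run of letters and not a site shown to be bound.

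The chosen regions made up 4.97% of the kept regions, and 4.01% (2122) passed the mirrored rule with SOX17FNV higher. In replicate 1 alone 7326 regions (13.8%) passed 20 points toward SOX2, and 35.9% of them passed in replicate 2 as well. In replicate 2 alone 8291 (15.7%) passed, and 31.7% of them passed in replicate 1. Toward SOX17FNV, 29.1% of the regions past 20 points in replicate 1 and 25.6% of those in replicate 2 passed in the other. Since the differences chose the regions, no test was run on them, and with 2 libraries against 2 the smallest exact permutation p is 0.333. Without pairing by replicate number, 1734 regions had both SOX2 percentiles 20 points above both SOX17FNV percentiles. At the edge of the rule, a region at chr16:29877502-29877971 entered with differences of 31.2 and 20.01 points and one inside Bhmt2 (chr13:93657896-93658915) with 22.9 and 20. Just outside lay a region inside Vangl2 (chr1:172024265-172024643), at 19.997 points in replicate 1, and one 6272 bp from Golga5 (chr12:102504288-102505610), at 19.99.

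**Figure D1:**
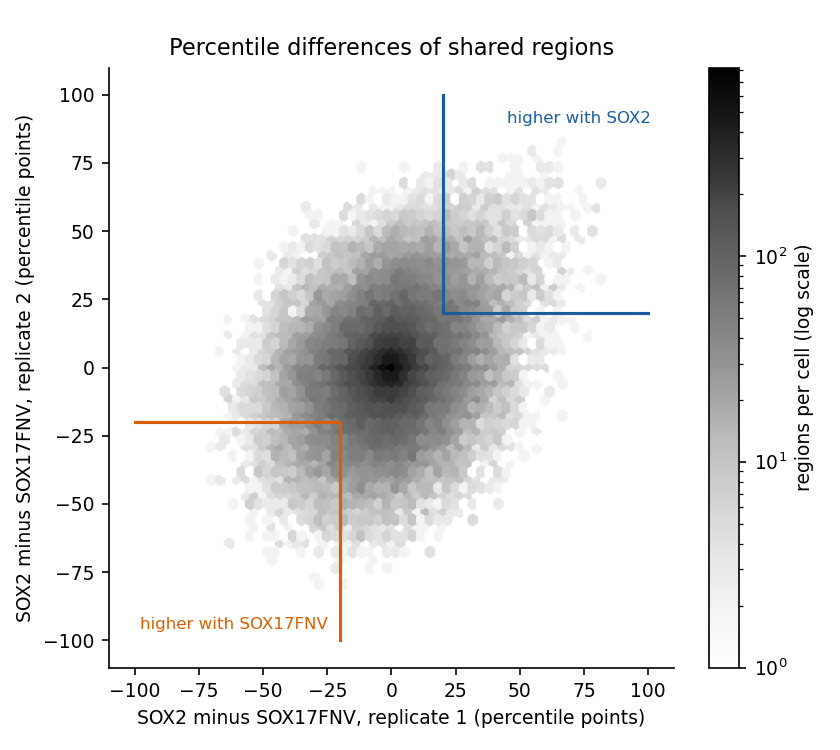
Each kept region (n = 52950) is placed by its SOX2 minus SOX17FNV percentile in replicate 1 (horizontal) and replicate 2 (vertical), with darker cells holding more regions on a log scale. The blue corner encloses the 2632 regions higher with SOX2 and the orange corner the 2122 higher with SOX17FNV.

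In the SOX17FNV libraries the chosen regions stood at median percentiles of 23.4 and 19.5, and in the SOX2 libraries at 63.9 and 62.7. They were therefore weak peaks with SOX17FNV and somewhat above average with SOX2. Median summit pileups were 22 and 16 against 38 and 30, which is 0.667 of the library median in each SOX17FNV library and 1.09 and 1.07 times the median with SOX2. The ratio of relative pileups, SOX2 over SOX17FNV, had a median of 1.55 over the chosen regions, with quartiles of 1.40 and 1.76 and a highest value of 3.38. A difference of 20 percentile points thus mostly stood for a moderate difference in pileup: 294 regions (11.2%) reached a ratio of 2, 1126 (42.8%) stayed below 1.5, and 8 had a pileup ratio below 1 in a replicate. For 2518 of them (95.7%) the lower SOX2 percentile lay above the higher SOX17FNV percentile, against 18.9% of all kept regions. The rule, which chose 4.97% of kept regions, used these values. In 1030 (39.1%) both SOX17FNV percentiles were below 25, in 68 both SOX2 percentiles were above 90, and 37 went from below 25 in both SOX17FNV libraries to above 75 in both SOX2 libraries.

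**Figure D2:**
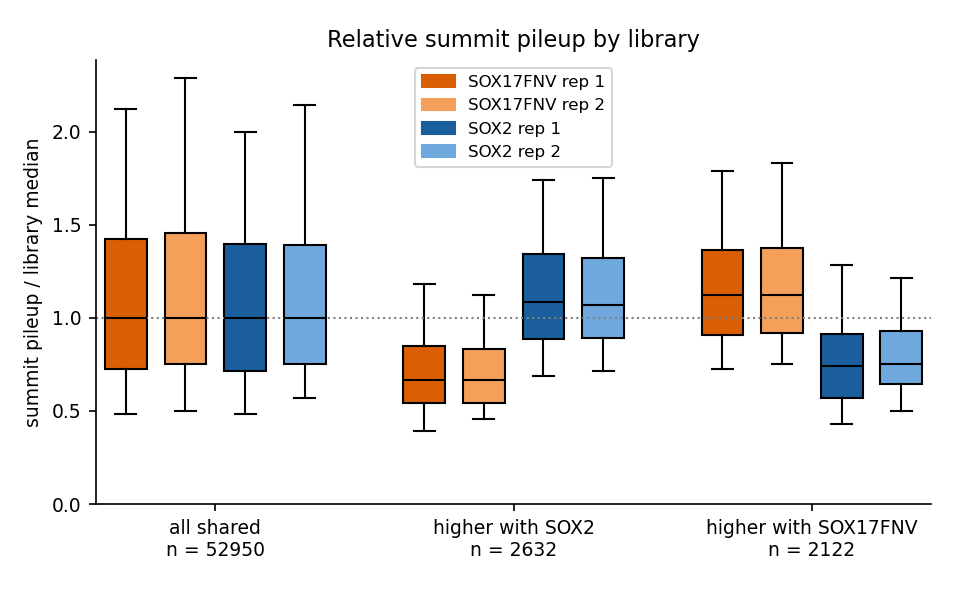
Summit pileup divided by the library's median over kept regions (vertical axis), for each of the 4 libraries, in all kept regions, regions higher with SOX2 and regions higher with SOX17FNV. Boxes span the quartiles, the line is the median and whiskers reach the 5th and 95th percentiles; the regions higher with SOX2 have medians of 0.667 in both SOX17FNV libraries and of 1.09 and 1.07 in the SOX2 libraries.

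The difference was seen in breadth as well as height. In 68.8% of the chosen regions the called bases were wider with SOX2 in both replicates, against 29.3% of all kept regions, and in 5.21% wider with SOX17FNV in both. Peak width follows from the same signal as peak height and is not independent of the rule. More summits with SOX2 in both replicates were found in 15.4% of chosen and 8.95% of all kept regions. The top summits of the 4 libraries lay within 100 bp of each other in 29.6% of the chosen regions, 38.5% of all kept regions and 47.5% of regions higher with SOX17FNV. The median merged width was 862 bp against 833 bp for all kept regions and 709.5 bp for the reverse direction.

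The 12 regions with the largest smaller-of-2 difference were spread over 9 chromosomes and had pileup ratios of 2.63 to 3.38. The first, inside Fam135b (chr15:71531844-71533339), had pileups of 15 and 10 with SOX17FNV and 54 and 37 with SOX2. Its relative pileup was 0.436 ± 0.0268 with SOX17FNV and 1.43 ± 0.157 with SOX2 (SD, n = 2), and its percentiles were 7.8 and 1.0 against 94.7 and 86.4. The second, inside Sema6d (chr2:124404332-124405394), a gene of the semaphorins that guide axons, had pileups of 14 and 10 against 46 and 43. The called bases there spanned 218 and 283 bp with SOX17FNV and 1063 and 858 bp with SOX2. Neither region had another kept region within 50 kb.

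The third region lay at chr15:57616694-57617543, more than 50 kb from any protein-coding gene and within the long non-coding RNA gene Gm35682. It had pileups of 18 and 13 with SOX17FNV and 57 and 48 with SOX2, at percentiles of 98.6 and 95.2 in the SOX2 libraries. Inside Zfp148 (chr16:33428281-33428995), which encodes a zinc finger transcription factor, pileups were 19 and 14 against 56 and 50. Inside Nedd9 (chr13:41458234-41459514), a scaffold gene of integrin signalling, they were 16 and 14 against 54 and 54. Inside Pdgfc (chr3:81101218-81103007), which encodes a platelet-derived growth factor, they were 14 and 13 against 53 and 44. In each of these regions both SOX2 libraries exceeded both SOX17FNV libraries, as the rule gave for 95.7% of the chosen regions.

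Among the remaining 6, the region inside Rrn3 (chr16:13785712-13786479), an initiation factor gene of RNA polymerase I, was the strongest, with 22 and 14 against 66 and 58. Others lay inside Abcb5 (chr12:118917474-118918278), a transporter gene, inside Pex13 (chr11:23653373-23654173), a gene of peroxisomal import, and inside Ust (chr10:8364067-8364669), a sulfotransferase gene. The region at Dgkb (chr12:37880233-37881066), a diacylglycerol kinase gene, lay 64 bp from an end of the gene span and 59 bp from an annotated gene start. The last lay 24342 bp from Acsl1 (chr8:46445892-46446694), which encodes an acyl-CoA synthetase. At Pex13 the pileups were 13 and 10 against 47 and 30, and at Ust 13 and 10 against 38 and 42. The SOX2 replicates differed most in relative pileup at Ust (1.29 ± 0.293, SD, n = 2) and Nedd9 (1.74 ± 0.273). In the 10 Mb stretches that hold them, the median pileup ratio of the kept regions was 0.939 to 1.09 times the median over all kept regions (0.978). Genes are named by the nearest protein-coding span within 50 kb, and whether a region acts on that gene was not measured.

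**Figure D3:**
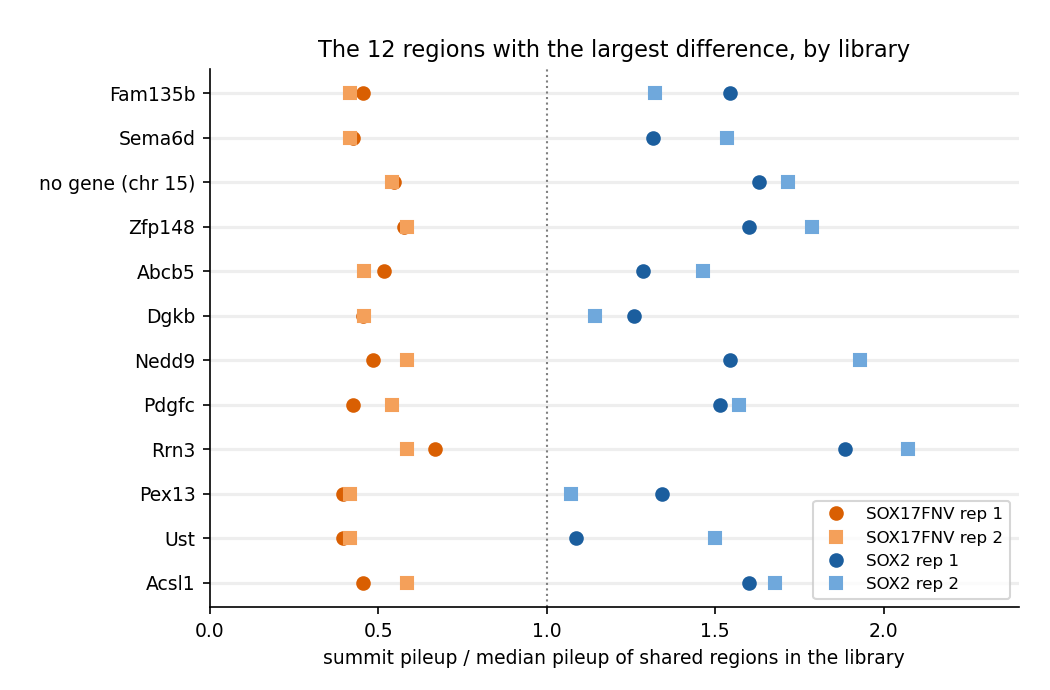
Relative summit pileup (summit pileup over the library's median, horizontal axis) of the 12 regions with the largest difference, by nearest gene, in each library. All SOX17FNV points (orange) lie below 1, marked by the dotted line, and all SOX2 points (blue) above it.

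The chosen regions with the highest SOX2 percentiles mostly had middle levels with SOX17FNV. At chr19:22823157-22824567 inside Trpm3, a cation channel gene, pileups were 23 and 15 with SOX17FNV and 67 and 55 with SOX2. At chr4:11665059-11666089, 38357 bp from Gem, a small GTPase gene, they were 25 and 16 against 69 and 71, a ratio of 3.15. Inside Rftn2 (chr1:55198535-55199351) they were 35 and 37 against 82 and 79. A further pair, at chr18:51932280-51933346 and chr4:38370829-38371579, had no protein-coding gene within 50 kb, with 28 and 17 against 56 and 51 and with 22 and 22 against 55 and 51. The lowest SOX2 percentile among these 5 was 96.9.

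Relative to genes, the chosen regions lay away from gene ends and were found unusually often far from any gene. Within 1 kb of an end of a protein-coding gene lay 12.8% of them (95% exact binomial interval 11.5 to 14.1%), against 26.0% of all kept regions and 12.7% of regions higher with SOX17FNV. Farther than 50 kb from every protein-coding gene lay 18.1% (16.7 to 19.6%), against 10.5% of all kept regions and 11.6% (10.3 to 13.03%) of the reverse direction. Inside genes lay 42.7%, against 38.1% and 46.1%, and outside but within 50 kb 26.4%, against 25.5% and 29.6%. Intervals cover counting error only, and regions of the same libraries are not replicates, so these shares were not tested. With peaks limited to -log10 q of at least 5 or 10, 26266 and 12691 regions were kept, 1318 and 659 were chosen and 23.6% and 40.8% of them lay near a gene end. The share of all regions kept under these filters that lay near a gene end is not given here. The 26.0% belongs to the unfiltered set, so whether the depletion held under the filters cannot be read from these values.

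Regions at gene ends were the strongest, and a region near the top or bottom of the ranking has little room to differ by 20 points in a given direction. Shares were therefore also taken within 5 equal classes of the mean percentile over the 4 libraries (level classes). In the middle class, 15.6% (13.7 to 17.8%) of the regions farther than 50 kb were higher with SOX2, against 8.64% of those inside genes, 8.51% of those outside within 50 kb and 6.78% of those near gene ends. In the reverse direction the same shares were 6.94%, 8.64%, 8.05% and 5.63%. Over all level classes, regions far from genes were chosen 1.61 times as often as the share of their class alone would give, and in the reverse direction 1.02 times as often. Near gene ends both directions lay below it, at 0.667 and 0.673 times. The depletion at gene ends was thus common to both directions, while the excess far from genes was seen on the SOX2 side.

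**Figure D4:**
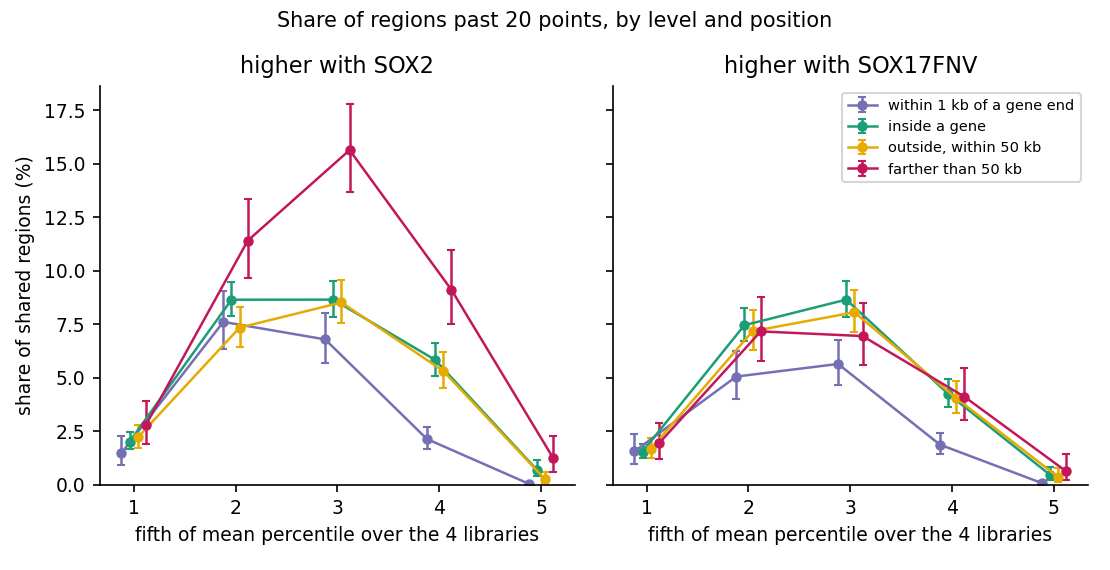
Share of kept regions past 20 points in both replicates (vertical axis, percent) by level class, 5 equal classes of the mean percentile over the 4 libraries (horizontal axis, 1 weakest) and by position, for regions higher with SOX2 (left) and with SOX17FNV (right). Bars are 95% exact binomial intervals; in the middle class the regions farther than 50 kb from a gene reach 15.6% on the left and 6.94% on the right.

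Among chosen regions farther than 50 kb from every protein-coding gene, the 3 with the largest difference were the one at chr15:57616694-57617543 named above, one at chr2:98843989-98844889 and one at chr9:34279623-34280505. At the second the pileups were 13 and 10 with SOX17FNV and 33 and 32 with SOX2. At the chromosome 9 region they were 18 and 15 against 62 and 43, at percentiles of 99.5 and 93.0 with SOX2. None of these 3 had another kept region within 50 kb. Of the chosen regions outside genes but within 50 kb, those with the largest difference, beside the Acsl1 region, were chr2:36023190-36023828, 12495 bp from Ndufa8, a gene of respiratory complex I (15 and 14 against 45 and 40), and chr2:105047763-105048830, 30735 bp from Eif3m, a translation initiation gene (15 and 13 against 47 and 34).

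The excess followed sparse surroundings as well as distance from genes. Of kept regions with at most 2 other kept regions within 50 kb, 7.22% were higher with SOX2 and 3.64% higher with SOX17FNV. With more neighbours the SOX2 share was 5.14%, 4.27%, 3.79% and, at 9 or more, 3.40%, where 4.32% were higher with SOX17FNV. Among regions farther than 50 kb from genes, the SOX2 share was 10.2% with at most 2 neighbours, and these held 334 of the 477 chosen there. With more neighbours it was 6.23%, 7.32%, 5.88% and 5.08%. The reverse shares of these far regions were 4.47%, 4.77%, 3.93%, 4.33% and 4.07% in the same order. Over stretches of 10 Mb, sorted into 4 equal groups by their number of kept regions, the SOX2 share went from 7.32% in the sparsest group to 3.70% in the densest, and the reverse share from 3.14% to 4.51%. The stretch-wide pileup ratio moved along with it. The median ratio of a stretch, SOX2 over SOX17FNV, was divided by the median ratio over all kept regions (0.978). On this scale it was 1.05 in the sparsest group and 0.979 in the densest. The local background under the summits, over the lowest background of the library, was also lowest far from genes, at 1.08 and 1.03 with SOX17FNV and 1.104 and 1.01 with SOX2, against 1.60, 1.48, 1.64 and 1.38 over all kept regions. When each difference was taken relative to the median difference of its own 10 Mb, 8.09% of the regions far from genes were higher with SOX2 and 4.53% higher with SOX17FNV, against 8.61% and 4.44% before. What part local background has in these shares was not tested.

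Every one of the 230 stretches of 10 Mb with at least 50 kept regions held a chosen region, and the median share was 5.09%. The highest shares were 17.8% (18 of 101) at 20 to 30 Mb of chromosome 15, 16.05% (13 of 81) at 60 to 70 Mb of chromosome 4, 14.04% (8 of 57) at 40 to 50 Mb of chromosome 2 and 13.98% (13 of 93) at 60 to 70 Mb of chromosome 15. In the chromosome 15 stretches the kept regions leaned toward SOX2 in their median, with median pileup ratios of 1.17 and 1.13 times the median over all kept regions. On chromosome 4 the ratio on this scale was 1.01. Stretches with a ratio above 1.1 on this scale held 3.04% of the chosen and 1.60% of all kept regions. By chromosome the share ran from 3.67% on chromosome 5 to 6.43% on chromosome 12, and on chromosome 13 it was 6.14% against 2.28% in the reverse direction.

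**Figure D5:**
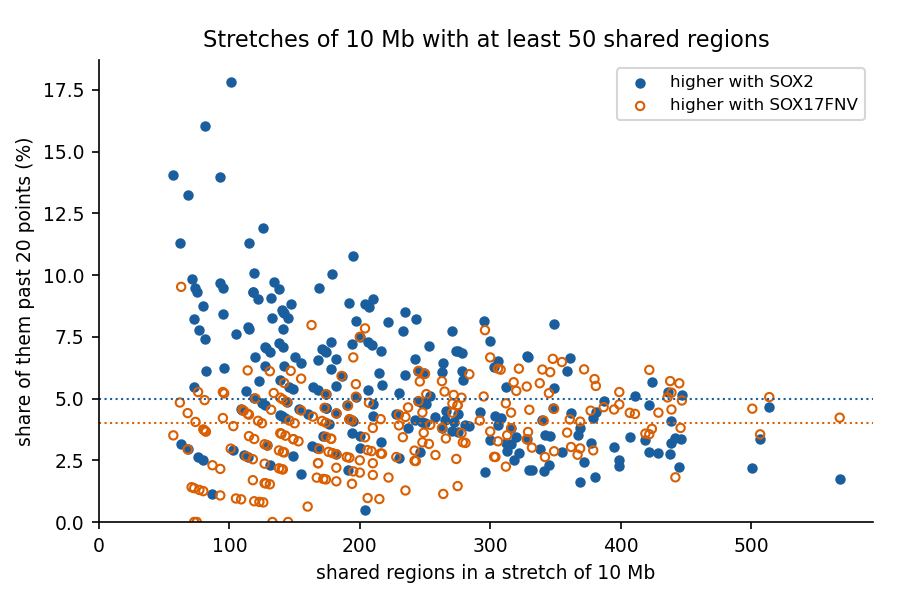
Share of kept regions past 20 points in both replicates (vertical axis, percent) against the number of kept regions (horizontal axis), for 230 stretches of 10 Mb; filled blue points are regions higher with SOX2, open orange points regions higher with SOX17FNV, and dotted lines the shares over all kept regions. Most blue points above 10% lie at stretches with few regions, where a share also has more counting error. Exceptions are 100 to 110 Mb of chromosome 13 (10.8% of 195 regions) and of chromosome 2 (10.06% of 179).

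Chosen regions had another chosen region nearby slightly more often than kept regions in general did. Another chosen region lay within 50 kb of 20.3% of them and of 18.2% of all kept regions, and within 10 kb of 5.02% and 4.10%. The reverse direction showed the same. Another region higher with SOX17FNV lay within 50 kb of 21.3% of such regions and 18.4% of all kept regions. Within 10 kb the shares were 5.33% and 3.97%. Around the chosen regions, the nearest kept region that passed the rule in neither direction had median differences of 0.275 and 0.772 points, at a median distance of 9781 bp. By this choice the neighbours could not include regions that passed; among the 1331 within 10 kb, 24.6% were higher with SOX2 in both replicates and 28.2% lower, against 23.8% and 28.4% around all kept regions. A region called in both SOX2 libraries and in neither SOX17FNV library lay within 10 kb of 9.69%, against 8.93% of all kept regions, and a SOX17FNV-only region within 10 kb of 5.66% against 7.04%. Of the chosen regions, 2098 (79.7%) had no other chosen region within 50 kb. Chains of 3 or more chosen regions, each within 50 kb of the next, numbered 27 and held 86 regions. No chain count for the reverse direction is given here. The chains were picked for their chosen regions, so the fractions of kept regions below follow from that choice. One at chr15:62010733-62099959 held 4 of the 9 kept regions in it. Myc, the proto-oncogene of growth control, was the only gene assigned in this chain. The chain spans 89.2 kb and genes were assigned only within 50 kb, so not every region of it need be assigned to Myc. The stretch of 10 Mb that holds this chain has the ratio of 1.13 given above. Others lay near Fscn1 and Rnf216 (4 of 6), near Dpp8, Igdcc3 and Igdcc4 (4 of 14), near Vegfa, a vascular growth factor gene (3 of 4), and near Sp5 (3 of 4).

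By gene, 1827 of 14989 genes with a kept region had a chosen one, 259 had 2 or more, and 290 also had a region higher with SOX17FNV. Tenm3, a teneurin gene of neuronal wiring, had 7 of 34, with 1 in the reverse direction. Slit3, an axon guidance gene, had 6 of 18, also with 1. Camk1d, a calcium-dependent kinase gene, had 5 of 17 with 2 in reverse, and Palld, an actin scaffold gene, 5 of 24 with none. Tmem108 had 4 of 7, Phf3 4 of 9, Zswim6 4 of 10 and Rbpms, an RNA-binding protein gene, 4 of 19, none of them with a reverse region. Over all kept regions of the gene, the chosen ones included, the median differences were 16.2 and 16.6 points at Slit3 and 19.4 and 20.02 at Zswim6. At Tmem108 they were 27.2 and 21.7 and at Phf3 17.3 and 10.96. They were smaller at Tenm3 (3.92 and 10.6), Camk1d (4.92 and 9.43), Palld (4.07 and 10.05) and Rbpms (2.68 and 7.12). Genes with many regions had more chances to appear here, and no correction for this was made.

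Within Tenm3 the strongest chosen region (chr8:48728740-48729629) had pileups of 21 and 11 with SOX17FNV and 58 and 30 with SOX2. Its SOX2 percentiles were 94.02 and 60.4, so the replicates themselves lay far apart. Within Palld (chr8:61677044-61678116) pileups were 23 and 16 against 63 and 47. At Phf3, a region 14642 bp from the gene (chr1:30786433-30787699) had 12 and 10 against 28 and 24, close to the lowest pileup any kept region had. Inside Phf3 (chr1:30847230-30848343) the values were 20 and 18 against 47 and 40.

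Over 20 gene lists with 263 genes, 53 of 1126 assigned regions (4.71%) were higher with SOX2 and 46 (4.09%) higher with SOX17FNV, close to the shares of 4.97% and 4.01% over all kept regions. The median differences over these regions were 0.06 and 1.44 points. No list was tested against the shares over all kept regions. General pluripotency genes had 1 of 58 and naive pluripotency genes 4 of 114, with 1 and 4 in the reverse direction. The one region of the general list, also in the naive list, lay 47258 bp from Zfp42, a marker gene of naive cells (chr8:43354268-43355312), with pileups of 32 and 20 with SOX17FNV and 53 and 35 with SOX2. Inside Esrrb, a nuclear receptor gene of naive pluripotency, a region at chr12:86454671-86456282 had 42 and 26 against 68 and 46. The remaining 2 belonged to Fbxo15 (chr18:84970247-84970705 with 26 and 18 against 41 and 27, and chr18:84912637-84913635 with 32 and 18 against 46 and 32).

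FGF and ERK pathway genes had 6 of 106 regions higher with SOX2 and 3 in reverse. FGF4 is the ligand that mouse embryonic stem cells secrete and that drives them toward differentiation. A region 1863 bp outside Fgf4 (chr7:144867109-144867927) had pileups of 31 and 21 with SOX17FNV and 62 and 52 with SOX2, or 0.907 ± 0.0455 against 1.81 ± 0.0606 times the median (SD, n = 2). Among receptors, the promoter region of Fgfr4 (chr13:55152443-55153358) had 30 and 25 against 40 and 38. The region 3364 bp from Fgfr1 (chr8:25513148-25515394) had 45 and 34 against 58 and 34, so its pileup did not differ in the direction of its percentiles in replicate 2. The feedback inhibitors Spred2 (chr11:19972191-19972959, 16 and 16 against 34 and 29) and Spry4 (chr18:38570387-38571299, 33 and 27 against 72 and 49) each had 1, and Spred2 also had a reverse region. At Dusp4 (chr8:34815735-34816785), a phosphatase gene that restrains ERK, pileups were 31 and 13 against 38 and 27, and the groups overlapped.

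The LIF and STAT3 list had 3 of 60 chosen regions, all at Lifr, which encodes the receptor chain for the LIF in the medium, and 4 reverse regions at other genes. At the end of Lifr (chr15:7089785-7090831) pileups were 13 and 12 with SOX17FNV and 44 and 25 with SOX2, and inside the gene (chr15:7159790-7160662) 16 and 12 against 38 and 28. At chr15:7107516-7108415 they were 21 and 13 against 46 and 23. All 3 came from the 8 kept regions of Lifr, none of which was higher with SOX17FNV.

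The WNT list had 8 of 117, with 9 in reverse. They lay at Tcf7l1, a repressor acted on by WNT signalling (chr6:72655141-72656466, 29 and 21 against 54 and 37, and chr6:72787191-72788833, 41 and 29 against 61 and 49), at Apc and Gsk3b of the destruction complex, at Lgr5, a receptor gene, and at Sp5, a WNT target gene. The Sp5 promoter region shown above (chr2:70474038-70477102) was the widest of all chosen regions at 3065 bp, with pileups of 25 and 21 against 51 and 35. At Apc (chr18:34195557-34196465) they were 18 and 10 against 33 and 22. Tcf7l1 and Gsk3b also had reverse regions, so within these genes both directions occurred.

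Hippo and TEAD genes had 5 of 67 (7.46%), with 1 in reverse (1.49%). Such counts are too small to set apart from the background of 4.97% and 4.01%. Of the 5, 2 lay near Amotl2, and 1 each at Stk4, a kinase gene, Tead1, a TEAD factor gene, and Wwtr1, which encodes the coactivator TAZ. At Wwtr1 (chr3:57558698-57559358) pileups were 31 and 21 against 47 and 34, and at Tead1 (chr7:112710485-112711086) 24 and 16 against 41 and 27. Nodal and BMP genes had 3 of 86 with 5 in reverse. At Smad1 (chr8:79331449-79332866), a BMP effector gene, pileups were 21 and 13 against 34 and 35, and at Smad3 (chr9:63803112-63803952), an effector gene of Nodal signalling, 34 and 26 against 50 and 49. Polycomb and DNA methylation genes had 1 of 107, inside Rnf2 (chr1:151472461-151473467), with 20 and 16 against 31 and 31.

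Of SOX family genes 3 of 61 regions were chosen and 0 were reverse, a count too small to set apart from the background of 4.97% and 4.01%. A region 18462 bp from Sox17 itself (chr1:4471460-4472465) had pileups of 20 and 12 with SOX17FNV and 33 and 20 with SOX2. When -log10 p was summed over summits, a replicate difference there fell below 0. The others lay at Sox11 (chr12:27320586-27321238, 16 and 20 against 32 and 31) and Sox4 (chr13:28952214-28952986, 27 and 18 against 38 and 29). POU family genes had 4 of 51, with 3 in reverse. Near Pou2f1 (chr1:166023926-166024472), which encodes OCT1, pileups were 23 and 18 against 40 and 41.

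Among lineage genes, trophectoderm had 3 of 45 with 2 in reverse. Inside Cdx2, a determinant of trophectoderm (chr5:147304213-147305385), pileups were 26 and 25 with SOX17FNV and 54 and 56 with SOX2. Primitive streak and mesoderm genes had 1 of 26 and 0 in reverse, 7253 bp from Msgn1, a presomitic mesoderm gene (chr12:11216202-11217220), with 17 and 15 against 41 and 38. Formative and primed genes had 2 of 56, both near Foxd3 (chr4:99641839-99642433, 21 and 19 against 41 and 34, and chr4:99650129-99651243, 29 and 25 against 61 and 40), with 2 reverse regions at Etv4 and Fgf5. Endoderm genes had 3 of 58 with 4 in reverse, endothelial and haematopoietic genes 3 of 43 with 0, and neuroectoderm genes 1 of 41 with 1. The counts of these lineage lists are too small to set apart from the background of 4.97% and 4.01%. Basement membrane and adhesion genes had 4 of 102 with 5 in reverse, among them a region inside Itgb5, an integrin gene (chr16:33844074-33845473, 34 and 18 against 72 and 50). Fibroblast genes, listed as feeder cell markers, had 0 of 19 and housekeeping genes 0 of 33, with 1 reverse region each.

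At promoters the chosen regions were few. Of 10618 kept regions over a promoter window 242 (2.28%) were higher with SOX2 and 147 (1.38%) higher with SOX17FNV. At the Notch4 promoter (region chr17:34563638-34564713), which belongs to a Notch receptor gene, pileups were 23 and 15 with SOX17FNV and 56 and 52 with SOX2. At Tfpi (region chr2:84473919-84474910), a coagulation inhibitor gene, they were 20 and 17 against 43 and 35, and at Myo16 (region chr8:10153599-10154725), a myosin gene, 16 and 11 against 33 and 26. At Dnajc6 (region chr4:101507352-101508141), a co-chaperone gene of clathrin uncoating, they were 27 and 19 against 57 and 40, and at Sycp3 (region chr10:88459285-88459859), a meiotic chromosome axis gene, 21 and 12 against 33 and 26. At Epcam (region chr17:87635745-87637171), an epithelial adhesion gene, they were 27 and 23 against 34 and 30. There a replicate difference turned to the SOX17FNV side with the sum over summits, and also with lists of equal length.

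The promoters concerned were poorer in CpG than most open promoters. Fewer than 5 CpG in 300 bases were found in 16.1% of promoters under chosen regions, 25.9% of those under regions higher with SOX17FNV and 5.56% of all kept promoters, or 9.89% when kept promoters were weighted to the level classes of the chosen regions. Of promoters with fewer than 5 CpG 6.61% were higher with SOX2 and 6.44% higher with SOX17FNV, and of those with 20 or more 1.66% and 0.705%. The latter also had the higher levels, with a median mean percentile of 81.3 against 52.1. The SOX motif was found in 8 of the 242 promoters (3.31%, interval 1.44 to 6.41%), against 2.05% of all kept promoters, 2.53% at like level and 3.60% of all promoters of the table. The OCT motif was found in 5 (2.07%, 0.674 to 4.76%) against 1.51% of all kept promoters and 1.74% of the table. The shares of the other sets lay within these intervals. The first 5 letters of the SOX motif alone, ACAAT, were found in 23.6% (18.4 to 29.4%), against 19.4% of all kept promoters and 30.3% of the table. The ETS motif was found in 4.55% (2.29 to 7.99%) against 16.1% of all kept promoters, 9.57% at like level, 9.09% of the table and 4.76% in the reverse direction. The SP motif, which overlaps the G+C-rich letters of CpG islands, was found in 50.8% (44.3 to 57.3%) against 64.9% of all kept, 58.1% at like level and 36.4% of the table. These shares concern promoters, which are 9.19% of the chosen regions, and the sequence under the rest was not analysed here.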

How the data were processed

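ATAC-seq peak lists of 4 libraries (SOX17FNV and SOX2, 2 each) were used. Bowtie2, SAMtools and MACS2 and the build mm10 are named in the submitters' processing notes; versions, settings and whether reads were shifted for the transposase: not given in the sources used here. Peaks were called per library, 1 list each. The deposited columns hold the authors' score, the fold enrichment (a ratio of pileup to local background), the -log10 p and -log10 q of a summit and the summit offset. The lowest deposited -log10 q was 1.30. Scores and folds are the authors', and served to describe or rank peaks within a list.

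Peaks overlapping by at least 1 bp were merged, and the highest -log10 p per region and library was turned into a percentile among regions called in all 4 libraries. The deposited fold and -log10 p were solved for a whole-number pileup, which returned the p within 0.001 for 100% of the regions' top summits. Pileup ratios are geometric means over the 2 replicates of the relative pileups. The merging and choosing steps were tested on simulated lists. Gene spans (19481 protein-coding genes on the chromosomes used), symbols and promoters came from RefSeq tables of GRCm38.p6. Planned windows around summits needed genome sequence, which was not used here, so promoter windows replaced them. Python 3.11.15, numpy 2.4.6, pandas 2.3.3, scipy 1.17.1 and matplotlib 3.10.9 were used.

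The members, gene lists and motifs were chosen with earlier results of these data known. Regions named in the text are the 12 with the largest smaller-of-2 difference, the 3 largest of each position class, the 5 with the highest SOX2 percentiles, those of the 8 genes with the most members, those assigned to listed genes, the 2 on either side of the threshold and the 3 widest; chains, stretches of 10 Mb and promoters were named by size or difference after their values were seen. One region that the rule names is not reported here. No test was run on the contrast that chose the regions. Alternatives were other thresholds, ranked values, peak filters, merging, list lengths and chromosomes, leaving out a replicate number, and no pairing by number. Shares carry exact 95% binomial intervals for counting error only.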

Additional observations from a re-analysis of the deposited data

How the results depend on the processing

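The count of 2632 became 6001 with a threshold of 10 points, 1063 with 30, 1318 and 659 with the peaks limited to -log10 q of 5 or 10 and above, and 7326 to 8291 when a replicate number was left out. Without the replicate block, that is without pairing by number, 1734 regions had both SOX2 percentiles 20 points above both SOX17FNV percentiles; across kept regions the replicate differences of the groups correlated at 0.180, and the labels do not say that a number marks a shared batch. Regions higher with SOX2 outnumbered the reverse in every setting, by 1.001 to 1.54 times. Of the 2632, 64.9% were chosen again when ranked on pileup, 68.5% on fold, 50.7% on the sum of -log10 p over summits, and 21.3% and 1.22% with the filters on q, where weak peaks leave the kept set. The share near a gene end was 12.8%, and 17.1% and 9.41% with 10 and 30 points, 11.5% ranked on pileup, 10.98% with percentiles among all called regions, 23.6% and 40.8% with -log10 q of at least 5 and 10, 17.0 to 17.2% without a replicate number, and 10.3% and 16.6% within 500 and 2000 bp. The matching shares of all kept regions under the filters on q and the other distances are not given here. The share farther than 50 kb was 18.1%, and 16.2% and 19.7% with 10 and 30 points, 15.9% with the sum over summits, 15.02% with -log10 q of at least 10 and 14.1 to 15.1% without a replicate number; in all settings run, a larger part of the regions far from genes was higher with SOX2 than with SOX17FNV. Single regions turned in the replicate with the smaller difference. At Fgfr1 it became -3.62 ranked on pileup and -2.58 with a larger overlap needed to join peaks, and at Epcam -14.1 with lists of equal length. With the sum over summits it became -3.95 at Fli1, -1.71 at Xkr5, -12.3 at Gsk3b (chr16:38242309-38242953), -10.5 at Foxa1, -4.78 at Sox17 and -19.6 at Epcam. Without the replicate block, the lower SOX2 minus the higher SOX17FNV percentile was -4.16 at Dusp4. The cause of these turns was not tested. Differences less the median of their 10 Mb, added after seeing the data, gave 2588 regions, 91.6% of the 2632 among them. Motif windows of other lengths or around summits were not run, since no genome sequence was used here. Weak peaks limit precision: the lowest pileups of kept regions were 10 to 13.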
